A study of Mus musculus with 10 samples.

Results

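Transcripts of 10 genes that control the first steps of Toll-like receptor (TLR) signaling were followed in mouse bone marrow–derived macrophages (BMDMs). The set holds the adaptor Myd88, the IL-1 receptor–associated kinases Irak1, Irak2, Irak3 and Irak4, the ubiquitin ligase Traf6, Tnfaip3 (which encodes A20) and the A20-binding proteins Tnip1, Tnip2 and Tnip3. The members were taken by name, and all 10 were found among the 55573 genes of the deposited table. They, and the gene lists and motifs used below, were chosen with earlier results of these data known. The shares of all genes set beside them are therefore descriptive. Each value is in CPM, the count of a gene scaled to an equal total for every library, which compares a gene between libraries but not 1 gene with another.

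BMDMs are macrophages grown in culture from bone marrow with the growth factor MCSF. They came from wild-type female C57BL/6 mice and were treated for 4 hours in 5 groups of 2 libraries, 10 libraries in all. The groups received vehicle; polyU, a uridine-only ssRNA carried by the lipid DOTAP (5 μg); PNPi+dG/rG, which is 1 μM of the purine nucleoside phosphorylase inhibitor ulodesine with 5 μM deoxyguanosine and 5 μM guanosine; PNPi+dG/rG+polyU, all of these agents together, called the combination below; or R848, a synthetic TLR7 ligand (1 ng/mL). DOTAP is named in the labels only with polyU, and no group is labeled as DOTAP alone. Effects of polyU and of its carrier therefore cannot be told apart. The labels call the 2 libraries of a group biological replicates without saying whether they came from different mice, so the p-values below describe the spread between these libraries. The design asks how guanine nucleosides protected by the inhibitor, ssRNA, both together and R848 differ in what they do to macrophage transcripts.

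TLR7 sits in endolysosomes and has one site for guanosine-like ligands and another for short uridine-rich ssRNA. A bound TLR recruits MyD88, which gathers IRAK4, IRAK1 and IRAK2 into a complex called the Myddosome, and TRAF6 then builds ubiquitin chains on which the TAK1 and IKK kinases are switched on, leading to NF-κB and MAPK activity. IRAK3, also called IRAK-M, and A20 with its TNIP (ABIN) partners are known as brakes on this route: IRAK3 limits signaling from the Myddosome, and A20 edits and binds ubiquitin chains. Several of these brakes are themselves NF-κB target genes in macrophages.

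The libraries held 14128128 to 38392592 reads on genes, and 3 reads corresponded to 0.0781 to 0.212 CPM. No member was near that limit: the member counts ran from 453 reads for Tnip2 to 47497 reads for Tnfaip3 in a single library. The 7 macrophage markers were all above 1 CPM in every group. Their summed level was 16830 to 17290 CPM with vehicle, 14070 to 14150 CPM with the combination and 12960 to 13220 CPM with R848. Lyz2 made up most of that sum (10805 and 11067 CPM with vehicle). Adgre1 and Fcgr1 had higher means with the combination than with vehicle, as did Adgre1 and Itgam with R848. The rest of the list had lower means. Of the markers of other cell types, the 5 fibroblast genes summed to 0.505 to 1.26 CPM with vehicle, polyU or PNPi+dG/rG. They summed to 3.68 to 5.00 CPM with the combination and to 138 to 147 CPM with R848, where 5 of 5 passed 1 CPM. With the combination, Pdgfrb (3.19 and 4.29 CPM) made up most of the sum, and the other fibroblast genes were at 0.354 CPM or less. The 4 neutrophil markers summed to 2.65 to 7.50 CPM in the first 4 groups and to 21.1 to 23.4 CPM with R848. Of these, S100a8 went from 1.57 and 2.02 CPM with vehicle to nearly the whole of that sum with R848, whereas S100a9 was at 1.18 and 1.46 CPM with vehicle and at 0.0532 CPM and 0 with R848, and Ly6g and Mpo were at 0 in both R848 libraries. The sum of the 4 endothelial markers went from 239.6 to 245.9 CPM with vehicle to 143.0 to 143.4 CPM with the combination. With R848 it was 64.5 to 69.8 CPM. Kdr (156 and 146 CPM) and Vwf (87.9 and 91.4 CPM) made up nearly all of the vehicle sum, with Cdh5 at 1.68 and 2.14 CPM. Pecam1 went the other way, from 0.337 and 0.0563 CPM with vehicle to 1.06 and 1.07 CPM with R848. The B cell, T cell and dendritic cell lists summed to at most 0.779 CPM in all libraries. Whether other cell types had a part in the R848 values below was not tested. In bulk RNA, fewer cells of a type and less RNA per cell cannot be told apart.

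A gene was called changed where limma gave a Benjamini-Hochberg adjusted p-value under 0.05 over the 11978 genes tested together with at least a 2-fold difference, and "rose" and "fell" are used here for such genes alone. Differences are log2 fold changes of CPM with their standard error (SE). All 10 members passed the filter of at least 1 CPM in at least 2 libraries.

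polyU alone moved the set by less than 2-fold. None of the 10 members was called, while 3.21% of all genes tested were called higher and 0.776% lower. At an unadjusted p-value under 0.05, limma gave 7 members higher and 1 lower, beside 2927 and 2685 of the 11978 genes tested. After adjustment 6 members were higher and 0 lower, beside 2467 and 2242 of all genes. These 6 differed by 0.39 to 0.90: Irak3, Tnip1, Tnip3, Myd88, Tnfaip3 and Irak2. PNPi+dG/rG alone left the other 9 members within -0.10 to 0.06 of vehicle on the log2 scale while Tnip3 differed by 0.33, and 0 were called, against 0.0668% of all genes called higher and 0.00835% lower. At an unadjusted p-value under 0.05, 1 member was higher and 0 were lower, beside 563 and 513 of all genes.

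When PNPi+dG/rG and polyU were given together, 6 of the 10 members rose and 0 fell (limma; 2 were lower at an unadjusted p-value under 0.05), beside 8.12% of all genes called higher and 14.3% called lower. The 6 were Myd88, Irak2, Irak3, Tnfaip3, Tnip1 and Tnip3. With R848, 6 members rose and 0 fell (2 lower at an unadjusted p-value under 0.05), beside 8.89% of all genes called higher and 30.3% called lower, and these were Myd88, Irak2, Irak3, Tnfaip3, Tnip1 and Tnip3. At an unadjusted p-value under 0.05, 5791 of the 11978 genes tested were lower with the combination and 7597 with R848. Both comparisons rest on the same vehicle libraries, so their values are set side by side and are not independent. The median log2 change of the members was 1.72 with the combination and 1.74 with R848, whereas the median over all tested genes was -0.22 and -0.50. Since CPM is a share of all reads, each member's value relative to the median gene (each library centred on its median) is given below where it changes a direction or a call.

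**Figure D1:**
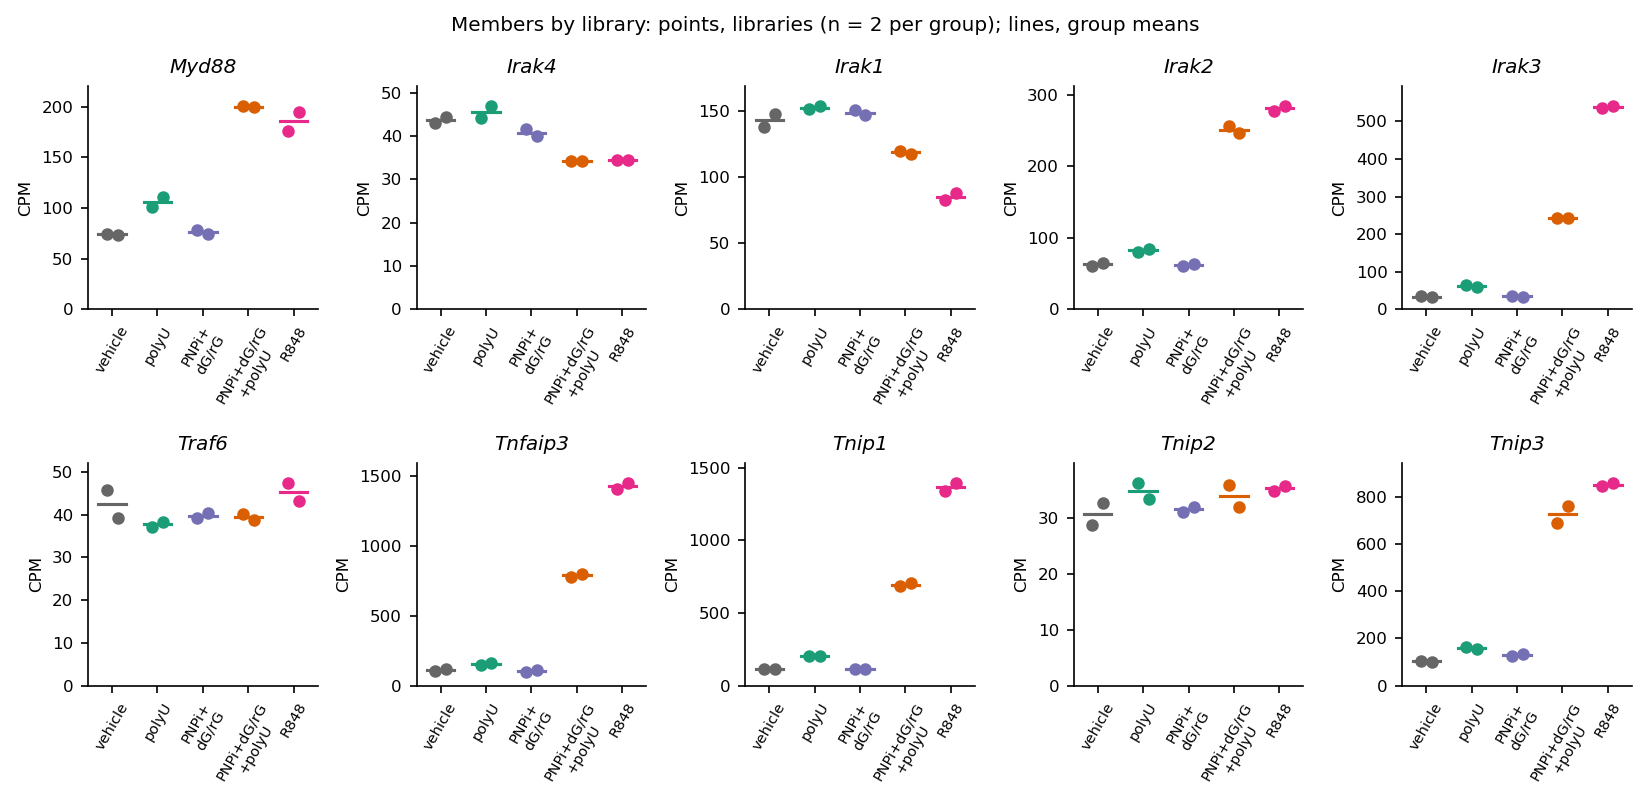
CPM of each member (y axis, from 0) in the 5 groups (x axis); points are libraries, 2 per group, and lines are group means. Irak3, Tnfaip3 and Tnip1 stepped up from the combination to R848 (Irak3, 242 to 244 CPM and then 535 to 541 CPM), whereas Traf6 and Tnip2 stayed between 28.8 and 47.4 CPM in all 10 libraries.

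Myd88 (ENSMUSG00000032508, GRCm38 chromosome 9, 119335934 to 119341411, minus strand) encodes the adaptor that links TLRs to the IRAK kinases. Its libraries stood at 74.5 and 73.7 CPM with vehicle, 101 and 111 CPM with polyU, 78.2 and 73.8 CPM with PNPi+dG/rG, 201 and 199.7 CPM with the combination, and 176 and 195 CPM with R848. The vehicle and PNPi+dG/rG libraries overlapped, those with polyU were higher, and the libraries with R848 or the combination were highest. Myd88 rose 2.70-fold with the combination (log2 1.43, SE 0.059, limma adjusted p = 4.43e-12) and 2.50-fold with R848 (log2 1.32, adjusted p = 6.04e-12). the combination and R848 differed by 0.11 in log2 (95% interval -0.02 to 0.24, limma adjusted p = 0.106), and relative to the median gene the sign turned (-0.27, adjusted p = 0.00081), so the order of these groups depends on the scaling. Of the exonic length of Myd88, 11.3% overlaps Acaa1a on the opposite strand (50.3 to 96.5 CPM), and whether the authors counted by strand is not given in the sources used here.

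Irak4 and Irak1 are the kinases at the head of the relay: IRAK4 is the first kinase to join MyD88, and IRAK1 is the one it activates. Irak4 (ENSMUSG00000059883; chromosome 15, 94543643 to 94581815, plus strand) was at 43.0 and 44.6 CPM with vehicle, 44.3 and 47.0 CPM with polyU, 41.6 and 40.1 CPM with PNPi+dG/rG, 34.3 and 34.2 CPM with the combination, and 34.5 and 34.5 CPM with R848. Irak1 (ENSMUSG00000031392; chromosome X, 74013914 to 74023918, minus strand) was at 138 and 148 CPM with vehicle, 151 and 153 CPM with polyU, 150.3 and 147 CPM with PNPi+dG/rG, 119.8 and 118 CPM with the combination, and 82.5 and 87.8 CPM with R848. Both kinases were therefore lower in CPM in all 4 libraries of the last 2 groups than in any vehicle library, and neither reached a 2-fold difference.

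The Irak1 difference from vehicle was -0.27 with the combination (SE 0.051, limma adjusted p = 0.000237) and -0.75 with R848 (SE 0.051, adjusted p = 1.27e-09), and the Irak4 difference was -0.35 (SE 0.064, adjusted p = 0.000154) and -0.34 (adjusted p = 0.000141). Relative to the median gene, Irak1 was -0.06 (adjusted p = 0.331) with the combination and -0.15 (adjusted p = 0.0103) with R848, while Irak4 was -0.14 (adjusted p = 0.0655) and then turned to 0.25 (adjusted p = 0.00269). Irak4 shares 7.87% of its exonic length with Twf1 on the opposite strand (99.2 to 165 CPM).

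Irak2 (ENSMUSG00000060477; chromosome 6, 113638467 to 113695026, plus strand) encodes an IRAK that sustains later TRAF6 signaling. Its level was 60.8 and 64.9 CPM with vehicle, 80.1 and 84.3 CPM with polyU, 60.5 and 63.0 CPM with PNPi+dG/rG, 257 and 246 CPM with the combination, and 278 and 284 CPM with R848. The libraries of the last 2 groups did not overlap, but they lay close. Irak2 rose 4.00-fold with the combination (log2 2.00, SE 0.052, limma adjusted p = 1.62e-14) and 4.48-fold with R848 (log2 2.16, adjusted p = 2.79e-15). The direct difference between the combination and R848 was -0.16 (95% interval -0.27 to -0.05, limma adjusted p = 0.0119), below the 2-fold limit. Relative to the median gene it was -0.54 (adjusted p = 2.21e-07), and the adjusted p-value was 0.0909 without the second library of the combination and 0.0709 without the second R848 library.

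Irak3 (ENSMUSG00000020227; chromosome 10, 120141648 to 120202130, minus strand), the IRAK that acts as a brake, had the largest difference from vehicle among the 10 members with R848. With the combination, Irak3 (2.88), Tnfaip3 (2.83) and Tnip3 (2.82) lay close together, and without the first library of the combination Tnip3 (2.89) was above Irak3 (2.87). It stood at 34.1 and 32.1 CPM with vehicle, 63.8 and 60.1 CPM with polyU, 34.6 and 33.1 CPM with PNPi+dG/rG, 244 and 242 CPM with the combination, and 535 and 541 CPM with R848. Vehicle and PNPi+dG/rG overlapped, and each step from there to polyU, to the combination and to R848 was wider than the gap between the 2 libraries of a group. Irak3 rose 7.34-fold with the combination (log2 2.88, SE 0.053, limma adjusted p = 4.04e-16) and 16.2-fold with R848 (log2 4.02, SE 0.053, adjusted p = 4.72e-18). With polyU it was 1.87-fold higher (log2 0.90, limma adjusted p = 3.41e-09), and with PNPi+dG/rG it differed by 0.03 (95% interval -0.08 to 0.14, adjusted p = 0.938). Irak3 shares 5.22% of its exonic length with Tmbim4 on the opposite strand (34.7 to 60.9 CPM).

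Because the 4 Irak transcripts moved apart, their shares of the family total were compared per kb of exon, a scale on which levels of different genes can be set side by side. The family total was 60.9 and 63.7 CPM per kb with vehicle, 76.4 and 77.3 with polyU, 63.3 and 62.3 with PNPi+dG/rG, 157 and 153 with the combination, and 233 and 237 with R848. Irak1 was the most abundant Irak transcript with vehicle, at 48.1% and 49.2% of the total, against 15.2% and 13.7% for the brake Irak3. With the combination, Irak3 made up 42.3% and 42.9% and Irak1 16.2% and 16.3%. Irak1 and Irak3 thus stood in the opposite order to that with vehicle, and the gap between them was wider with R848. Irak2 was second in each of these groups. With R848, Irak3 made up 62.5% and 62.1% of the total, Irak2 27.0% and 27.2%, Irak1 7.50% and 7.86%, and Irak4 2.95% and 2.90%. polyU alone gave an intermediate share of Irak3, 22.7% and 21.1%, whereas PNPi+dG/rG gave 14.9% and 14.4%, within the vehicle range. These shares do not depend on the scaling of a library, since the same factor applies to all 4 genes, but they rest on annotated exon lengths and on transcripts, not proteins.

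**Figure D2:**
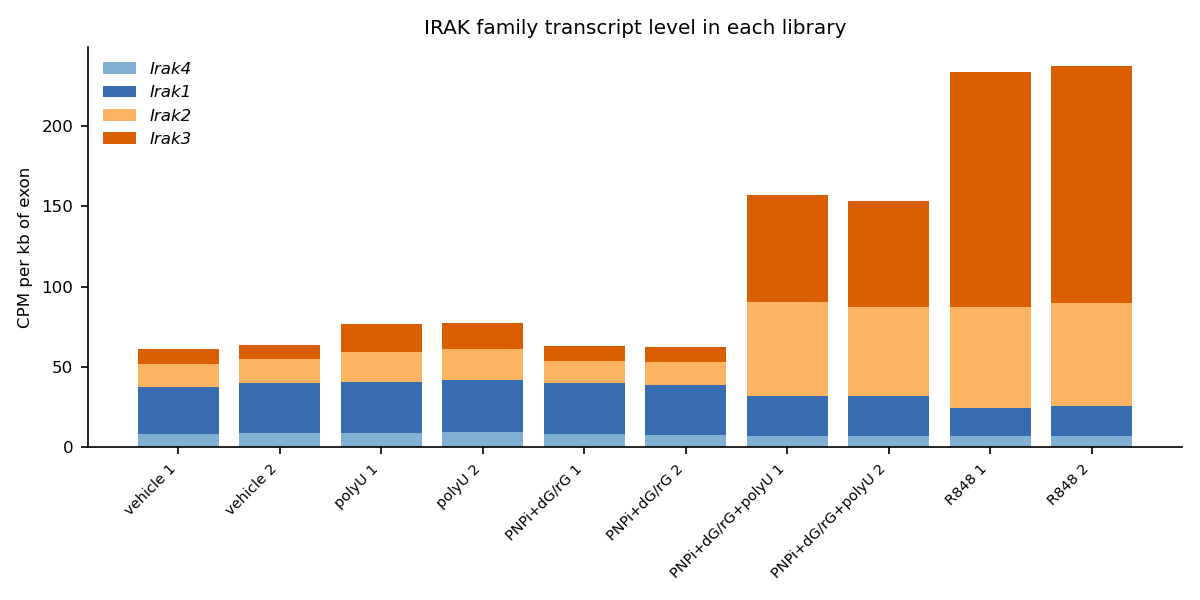
Level of Irak4, Irak1, Irak2 and Irak3 in each library, in CPM per kb of exon (stacked bars from 0; x axis, the 10 libraries). The totals of 153 to 157 with the combination and 233 to 237 with R848 were mostly Irak2 and Irak3, whereas Irak1 was the widest band in the 6 libraries of the other groups.

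Traf6 (ENSMUSG00000027164; chromosome 2, 101678429 to 101701669, plus strand), the ligase that receives the signal from the IRAKs, was not called in any of the 7 comparisons. Its values were 45.8 and 39.2 CPM with vehicle, 37.2 and 38.2 CPM with polyU, 39.1 and 40.2 CPM with PNPi+dG/rG, 40.2 and 38.7 CPM with the combination, and 47.4 and 43.2 CPM with R848. The 2 vehicle libraries were 1.17-fold apart, the widest gap of any member in any group, and 3 of the other 8 libraries lay between them. The difference from vehicle was -0.10 with the combination (95% interval -0.27 to 0.06, limma adjusted p = 0.258) and 0.10 with R848 (95% interval -0.07 to 0.26, adjusted p = 0.268). Relative to the median gene, these were 0.11 (adjusted p = 0.25) and 0.69 (adjusted p = 1.15e-06).

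A20 and the TNIPs act downstream of TRAF6, where A20 trims ubiquitin chains and the TNIPs bind both A20 and ubiquitin. Tnfaip3 (ENSMUSG00000019850; chromosome 10, 19000910 to 19015657, minus strand) was at 107 and 116 CPM with vehicle, 149 and 162 CPM with polyU, 100.3 and 113 CPM with PNPi+dG/rG, 782 and 803 CPM with the combination, and 1411 and 1454 CPM with R848. The gap between polyU and the combination was the widest on the log2 scale among the members. Tnfaip3 rose 7.12-fold with the combination (log2 2.83, SE 0.060, limma adjusted p = 7.61e-15) and 12.9-fold with R848 (log2 3.69, SE 0.060, adjusted p = 2.00e-16), and it was 1.39-fold higher with polyU (log2 0.48, adjusted p = 2.00e-05).

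Tnip1 (ENSMUSG00000020400; chromosome 11, 54910785 to 54962917, minus strand) encodes ABIN1, which recruits A20 to ubiquitin-bearing signaling complexes. It was at 112 and 115 CPM with vehicle, 204 and 205 CPM with polyU, 112 and 116 CPM with PNPi+dG/rG, 684 and 704 CPM with the combination, and 1337 and 1397 CPM with R848. Its order of groups was that of Irak3, with vehicle and PNPi+dG/rG overlapping and the others separate. Tnip1 rose 6.12-fold with the combination (log2 2.61, SE 0.042, limma adjusted p = 1.23e-16) and 12.1-fold with R848 (log2 3.59, adjusted p = 1.76e-18), and it was 1.80-fold higher with polyU (log2 0.85, adjusted p = 4.47e-10).

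Tnip3 (ENSMUSG00000044162; chromosome 6, 65525313 to 65634040, plus strand) encodes ABIN3, another A20-binding protein. Its libraries held 105 and 101 CPM with vehicle, 165 and 153 CPM with polyU, 125 and 134 CPM with PNPi+dG/rG, 691 and 763 CPM with the combination, and 845 and 861 CPM with R848. Unlike the other 9 members, Tnip3 was higher in both PNPi+dG/rG libraries than in both vehicle libraries with an adjusted p-value under 0.05 (1.26-fold; log2 0.33, 95% interval 0.21 to 0.45, limma adjusted p = 0.0109). That value is under the 2-fold limit, and its adjusted p-value was 0.307 with plain eBayes, 0.0844 without the second vehicle library and 0.193 without the second PNPi+dG/rG library. Tnip3 rose 7.06-fold with the combination (log2 2.82, SE 0.055, limma adjusted p = 5.83e-16) and 8.29-fold with R848 (log2 3.05, adjusted p = 1.05e-16).

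Tnip2 (ENSMUSG00000059866; chromosome 5, 34496087 to 34513991, minus strand) encodes ABIN2, which also stabilizes the kinase TPL2. It was at 28.8 and 32.6 CPM with vehicle, 36.3 and 33.3 CPM with polyU, 31.0 and 32.0 CPM with PNPi+dG/rG, 35.9 and 31.9 CPM with the combination, and 34.8 and 35.7 CPM with R848. Each group overlapped its neighbour in the order of levels. Tnip2 was not called in any comparison: the difference from vehicle was 0.14 with the combination (95% interval -0.03 to 0.32, limma adjusted p = 0.139) and 0.20 with R848 (95% interval 0.03 to 0.38, adjusted p = 0.0342), or 0.35 and 0.80 relative to the median gene. Per kb of exon, Tnip2 went from 20.7% and 22.5% of the TNIP total with vehicle to 2.77% and 2.73% with R848, while Tnip1 went from 60.8% and 60.3% to 80.7% and 81.1%.

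**Figure D3:**
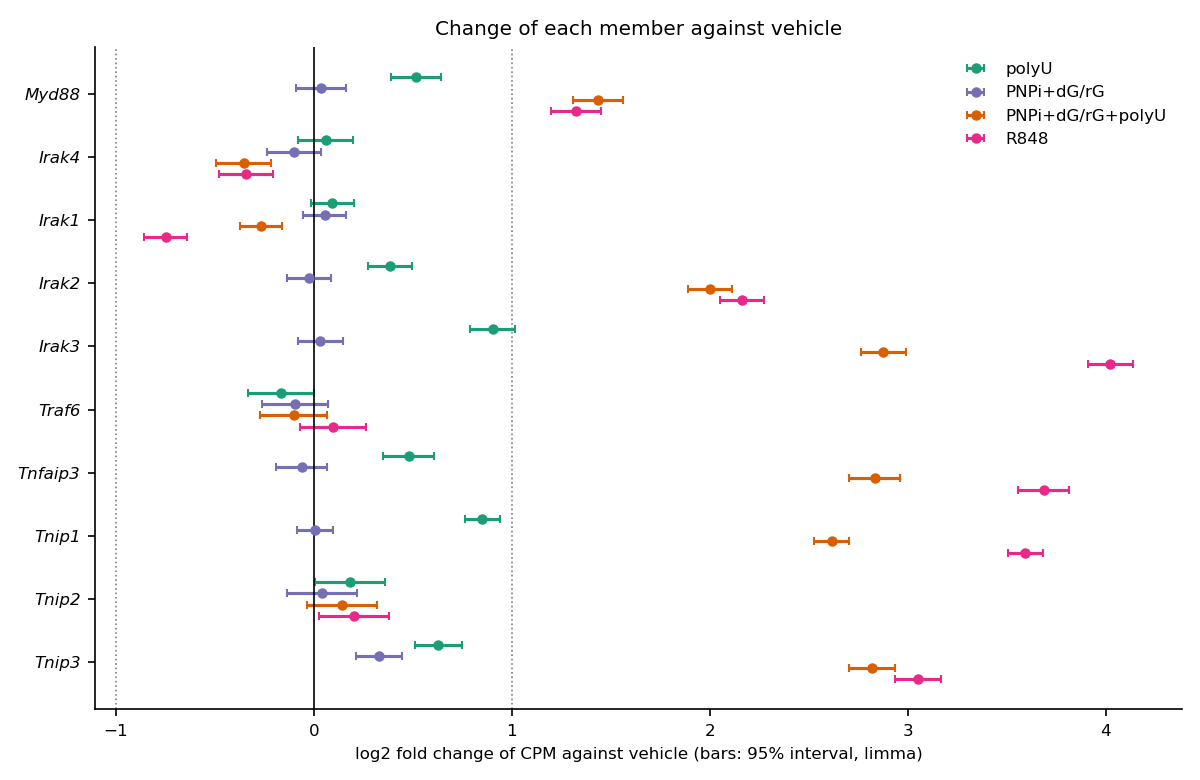
Log2 fold change of CPM against vehicle (x axis) for each member (y axis) with polyU, PNPi+dG/rG, the combination and R848; points are limma estimates from 2 libraries per group, bars are 95% intervals, and dotted lines mark 2-fold. 6 members pass the upper dotted line with the combination (PNPi+dG/rG+polyU in the legend) and with R848, while polyU alone reaches at most 0.90.

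Of the A20 and TNIP genes, the promoters of Tnfaip3, Tnip1 and Tnip3 are shown because NF-κB is the factor that this pathway activates. These 3 genes carry letters of its consensus near an annotated start. The Tnip2 window, not shown, held only the looser form described below. RefSeq windows on GRCm38.p6, from 250 bases before to 50 bases after an annotated start, were present for all 10 members (13 windows). Capitals mark matches to a 10-base NF-κB consensus that begins with GGG and ends with CC, read on both strands, so that a match can appear as its reverse complement. The Tnfaip3 window is at chr10:19015361-19015660 and that of Tnip1 at chr11:54962891-54963190, both on the minus strand. That of Tnip3 is at chr6:65590148-65590447 on the plus strand, within the longer span that GENCODE gives the gene. Nearly all of the Tnfaip3 window also lies within its GENCODE span, which ends at 19015657. A second Tnfaip3 window, at chr10:19011914-19012213, held no match and is not shown.
Tnfaip3: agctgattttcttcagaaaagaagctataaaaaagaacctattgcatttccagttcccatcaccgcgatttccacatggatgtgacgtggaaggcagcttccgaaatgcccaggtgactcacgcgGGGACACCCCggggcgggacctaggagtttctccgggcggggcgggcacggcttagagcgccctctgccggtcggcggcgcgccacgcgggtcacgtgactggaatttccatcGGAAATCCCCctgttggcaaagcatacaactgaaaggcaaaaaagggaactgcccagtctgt
Tnip1: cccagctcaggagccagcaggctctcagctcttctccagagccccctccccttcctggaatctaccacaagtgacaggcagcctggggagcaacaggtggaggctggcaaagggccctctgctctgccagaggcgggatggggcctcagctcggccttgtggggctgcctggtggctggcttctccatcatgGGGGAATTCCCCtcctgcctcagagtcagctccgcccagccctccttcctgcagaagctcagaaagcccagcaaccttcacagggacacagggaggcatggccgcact
Tnip3: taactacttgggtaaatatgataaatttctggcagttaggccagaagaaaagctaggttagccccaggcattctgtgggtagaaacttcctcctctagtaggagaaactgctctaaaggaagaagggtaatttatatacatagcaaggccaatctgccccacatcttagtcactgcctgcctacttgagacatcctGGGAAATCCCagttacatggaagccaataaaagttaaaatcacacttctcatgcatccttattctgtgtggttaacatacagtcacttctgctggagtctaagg

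In the Tnfaip3 window shown, the matches GGGACACCCC and GGAAATCCCC began 125 and 12 bases upstream of the RefSeq start. An AP-1 match TGACTCA began 136 bases upstream of it. In the Tnip1 window, 3 overlapping matches (GGGGAATTCC, GGGAATTCCC and GGAATTCCCC) began 58, 57 and 56 bases upstream, and in that of Tnip3 GGGAAATCCC began 54 bases upstream. Such a match was found in 3 of the 10 members and in 5.14% of the 27025 genes in the promoter table. A looser form of the consensus, which begins with GG and ends with CC, was also found in Irak1 and Tnip2, making 5 of 10 members beside 12.6% of genes. Both forms can overlap each other. TGANTCA was found in Tnfaip3 alone among the members (8.97% of genes). The core of the interferon-stimulated response element (GAAA, 2 free bases, GAAA) was found in Myd88 alone (3.99% of genes). That match, GAAAGCGAAA, began 40 bases upstream of a RefSeq start that lies within the GENCODE span of Myd88. The windows of Irak2, Irak3, Irak4 and Traf6 held none of these letters, and Irak2 and Irak3 were among the 6 members that rose. A match describes letters and does not show that a factor binds.

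The next comparison was what PNPi+dG/rG added to polyU. Relative to polyU alone, 2 members were lower with the combination at an unadjusted p-value under 0.05, beside 5983 of the 11978 genes tested. Of the 10 members, 5 rose and 0 fell, beside 5.29% of all genes called higher and 10.2% lower. The largest difference was that of Tnfaip3 (5.11-fold; log2 2.35, SE 0.060, limma adjusted p = 1.63e-13), followed by Tnip3 (4.56-fold), Irak3 (3.93-fold), Tnip1 (3.39-fold) and Irak2 (3.06-fold). Myd88 was 1.89-fold higher (log2 0.92, SE 0.059, limma adjusted p = 2.05e-09) and so fell short of the 2-fold limit, which it passed relative to the median gene (log2 1.17). Irak1 and Irak4 were lower by 0.36 and 0.41 (limma adjusted p = 1.65e-05 and 4.56e-05), or by 0.11 and 0.16 relative to the median gene.

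The interaction subtracts what PNPi+dG/rG did on its own from what it did in the presence of polyU, and so tests whether the joint treatment exceeded the sum of its parts on the log2 scale. It was called positive for 5 of 10 members and negative for 0, beside 4.55% of all genes called positive and 8.87% negative. At an unadjusted p-value under 0.05, 2 members were negative, beside 5245 of the 11978 genes tested. For Tnfaip3, the interaction was 2.42 (SE 0.085, limma adjusted p = 1.89e-11), so that the fold change due to PNPi+dG/rG was 5.34 times as large in the presence of polyU as in its absence. The values were 1.94 for Irak3 (SE 0.075, limma adjusted p = 1.75e-11), 1.86 for Tnip3 (SE 0.077, adjusted p = 3.57e-11), 1.76 for Tnip1 (SE 0.059, adjusted p = 4.65e-12) and 1.64 for Irak2 (SE 0.074, adjusted p = 8.09e-11). The 5 thus comprised 4 genes of brakes and the kinase Irak2. For the adaptor Myd88 the interaction was 0.88 (SE 0.084, limma adjusted p = 4.27e-07), under the 2-fold limit, and it was 1.17 relative to the median gene. Traf6 and Tnip2 gave 0.16 (95% interval -0.08 to 0.40) and -0.08 (95% interval -0.33 to 0.17), or 0.45 (limma adjusted p = 0.00537) and 0.21 (adjusted p = 0.166) relative to the median gene. Irak1 and Irak4 gave -0.42 and -0.31 (limma adjusted p = 0.000209 and 0.00999), and relative to the median gene -0.13 (adjusted p = 0.16) and -0.03 (adjusted p = 0.851).

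Finally, the combination was compared with R848. Of the 10 members, 1 was called lower with the combination and 0 higher, beside 16.9% of all genes called higher and 3.86% called lower. At an unadjusted p-value under 0.05, 6 members were lower and 1 higher, beside 2093 lower and 6621 higher of the 11978 genes tested. The called member was Irak3, 2.21-fold lower with the combination (log2 -1.15, SE 0.053, 95% interval -1.26 to -1.03, limma adjusted p = 3.80e-11). Tnip1 was 1.97-fold lower (log2 -0.98, SE 0.042, limma adjusted p = 1.57e-11) and Tnfaip3 1.81-fold lower (log2 -0.85, SE 0.060, adjusted p = 1.07e-08), both within the 2-fold limit, which Tnip1 passed without the first R848 library (-1.01) and which both passed relative to the median gene (-1.36 and -1.24). Tnip3 differed by -0.23 (SE 0.055, limma adjusted p = 0.00138), or by -0.62 relative to the median gene (adjusted p = 4.95e-08). Traf6 differed by -0.20 (SE 0.079, limma adjusted p = 0.0343), or by -0.58 relative to the median gene (adjusted p = 1.20e-05), and its adjusted p-value was 0.246 without the first R848 library. Among the members that rose with both treatments, therefore, the gap to R848 ranged from 0.11 in the other direction for Myd88 to -1.15 for Irak3. Irak1 was the member higher with the combination (log2 0.48, SE 0.051, limma adjusted p = 5.66e-07), by 0.10 relative to the median gene (adjusted p = 0.0948). For Irak4 the difference was -0.01 (95% interval -0.15 to 0.13), or -0.39 relative to the median gene. The doses of the ligands were not matched in strength, so these values compare the treatments as given.

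**Figure D4:**
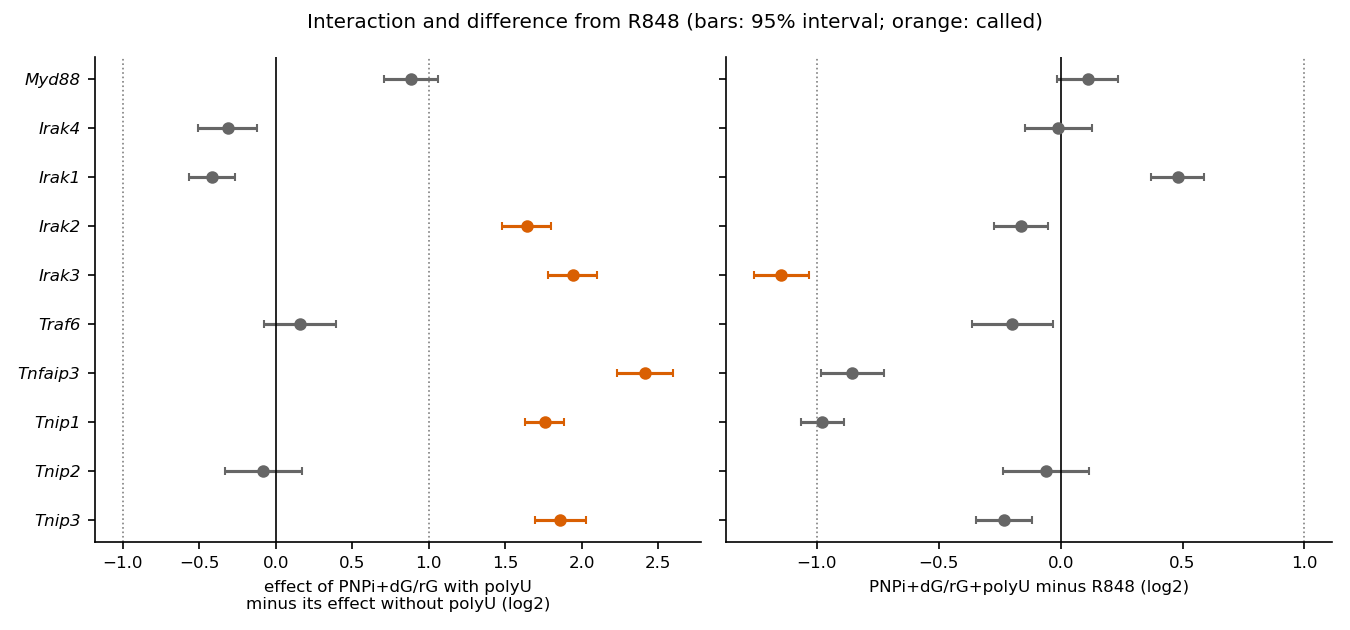
Left, the interaction of PNPi+dG/rG with polyU (x axis, log2); right, the log2 difference of the combination from R848; members are on the y axis, points are limma estimates, bars are 95% intervals, orange marks called members and dotted lines 2-fold. At left 5 members are called, led by Tnfaip3 at 2.42, and Irak3 alone is called at right (-1.15).

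For context, 43 other genes of the pathway were grouped by role, of which 41 passed the filter (Sigirr and Ube2v1 did not). With the combination, 11 of the 41 rose and 2 fell, with a median log2 change of 0.10, beside the 8.12% and 14.3% of all genes given above. With R848, 11 rose and 8 fell, with a median of 0.23, beside 8.89% and 30.3% of all genes. Relative to the median gene, 12 rose and 1 fell with the combination, and 17 rose and 5 fell with R848, so the R848 counts depend on the scaling. With polyU, 4 rose (Nfkbia, Traf1, Map3k8 and Birc3) and 1 fell (Il1rl1), beside 3.21% of all genes called higher and 0.776% lower. With PNPi+dG/rG 0 were called, beside 0.0668% of all genes called higher and 0.00835% lower. At an unadjusted p-value under 0.05, limma gave 9 higher and 4 lower, beside 563 and 513 of all genes.

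Among 8 genes of the receptor complex and its adaptors, 1 rose and 0 fell with the combination, beside 8.12% and 14.3% of all genes. At an unadjusted p-value under 0.05, limma gave 1 of them lower. The gene that rose was Tifa, a TRAF6-interacting adaptor, with log2 changes of 1.37 with the combination (SE 0.06, limma adjusted p = 9.86e-12) and 1.33 with R848. Tlr7 itself differed by 0.05 and 0.45, without being called, although relative to the median gene its difference with R848 passed the limits (1.04). With PNPi+dG/rG alone, Tlr7 was at 113 and 123 CPM, against 166 and 142 CPM with vehicle. Relative to the median gene this difference was -0.41 (limma adjusted p = 0.012), under the 2-fold limit. Irf5 and Slc15a4, which were named after their values were seen, take part in TLR7 signaling to interferon and cytokine genes: Irf5, which encodes a transcription factor, stood at 273 and 303 CPM with vehicle, 261 and 235 CPM with the combination and 68.2 and 70.7 CPM with R848. Slc15a4, a lysosomal transporter, stood at 61.9 and 69.1, 71.6 and 70.3, and 31.2 and 31.4 CPM in the same groups. Both fell with R848 (log2 -2.05 and -1.06, limma adjusted p = 2.29e-13 and 3.01e-10), but relative to the median gene only Irf5 was still called (-1.46), and Slc15a4 was at -0.47.

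In the TAK1 and IKK relay, limma gave 1 of 9 genes lower with the combination at an unadjusted p-value under 0.05. Of the 9, 2 rose and 0 fell, beside 8.12% and 14.3% of all genes. These were Nfkbia, the inhibitor that NF-κB induces against itself, with log2 changes of 4.12 (SE 0.07, limma adjusted p = 5.81e-15) and 3.92 with R848, and Map3k8, which encodes the TPL2 kinase bound by TNIP2, with 3.66 and 3.59. With R848, 4 genes of this group rose and 1 fell, beside 8.89% and 30.3% of all genes. The gene that fell was the TAK1-binding subunit Tab1 (log2 -1.70, limma adjusted p = 5.57e-10). Nfkbia was also higher with PNPi+dG/rG alone, by 0.51 (limma adjusted p = 0.00529), under the 2-fold limit. Map3k8 and Tab1 were named after their values were seen.

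Of the 11 ubiquitin ligases and E2 enzymes, 7 rose and 1 fell with the combination, beside 8.12% and 14.3% of all genes. With R848, 5 rose and 2 fell, beside 8.89% and 30.3% of all genes. Traf1, which pairs with cIAP ligases, rose most, by 3.77 with the combination (SE 0.08, limma adjusted p = 1.51e-14), and it rose by 3.84 with R848. Peli2, a Pellino ligase that acts on IRAK1, fell by 2.08 (SE 0.15, limma adjusted p = 3.55e-09) and by 2.51 with R848. Of its libraries, those with vehicle were at 15.4 and 17.3 CPM and those with the combination at 3.89 and 3.80 CPM.

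Of the 7 deubiquitinases and A20 partners, including Tax1bp1, Itch and Rnf11 that work with A20, 0 were called in any of the 7 comparisons. At an unadjusted p-value under 0.05, limma gave 2 higher and 1 lower with the combination and 3 higher and 2 lower with R848, within -0.88 to 0.84 in both. Relative to the median gene, 1 was called with the combination (Optn, 1.05) and 2 with R848 (Tax1bp1, 1.40, and Rnf11, 1.20). Over all genes, 8.12% were called higher and 14.3% lower with the combination, and 8.89% and 30.3% with R848. Beside those shares, 7 genes are too few for 0 calls to set the group apart. Tnfaip3, Tnip1 and Tnip3 changed by 2.61 to 3.69 with the combination and R848. Among the 6 other TLR brakes tested, Zc3h12a, the mRNA-cleaving enzyme Regnase-1, rose by 3.39 with the combination (SE 0.09, limma adjusted p = 1.44e-12) and by 4.28 with R848, and Il1rl1, the IL-33 receptor, fell by 1.26 and 1.31 on 6 to 37 reads per library. The call of Il1rl1 was lost relative to the median gene (-1.04, adjusted p = 0.064, with the combination and -0.72, adjusted p = 0.177, with R848). Irak1bp1 and Sarm1, named after their values were seen, were higher with the combination than with R848, but on few reads: Irak1bp1 had 24 and 21 reads against 3 and 11, and Sarm1 had 8 and 4 reads against 0 and 1.

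**Figure D5:**
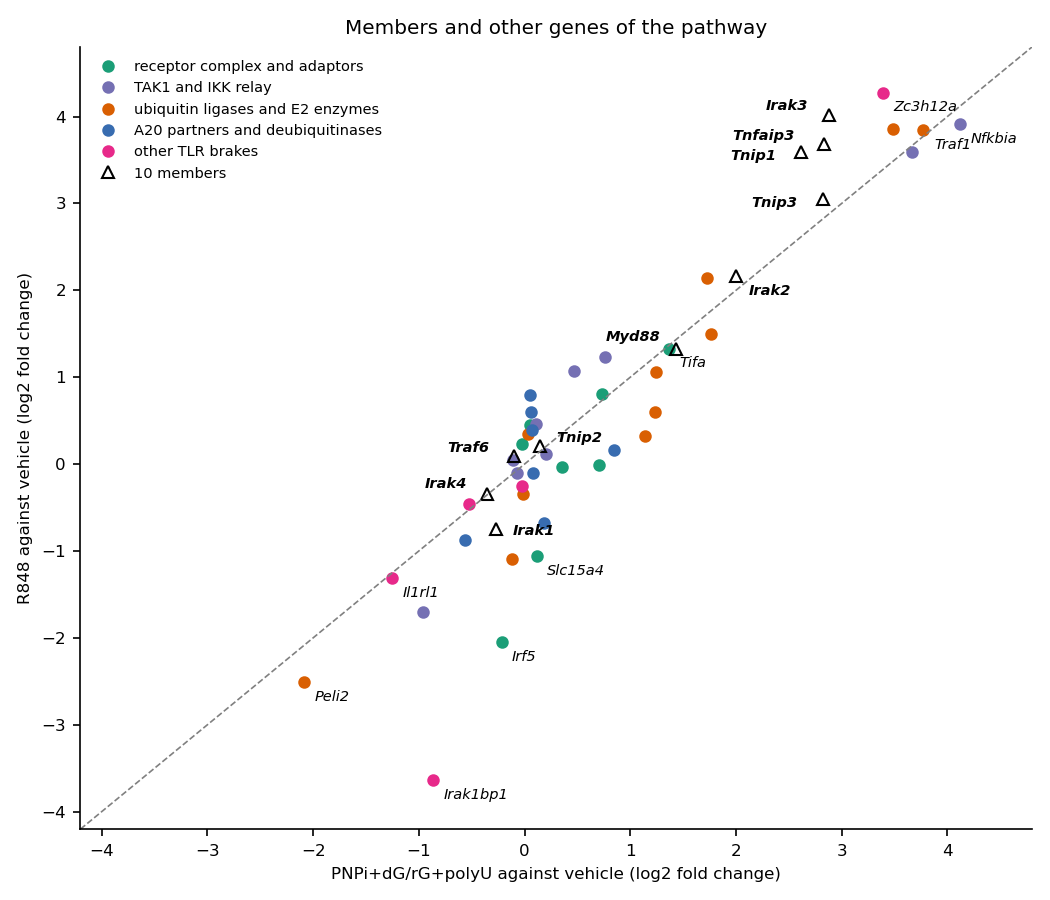
Log2 fold change against vehicle with the combination (x axis) and with R848 (y axis) for 40 pathway genes, coloured by role, and the 10 members (open triangles, names in bold); Sarm1 is not drawn, the dashed line marks equal values, and both axes share the 2 vehicle libraries. Irak3, Tnfaip3 and Tnip1 lie above the line beside Zc3h12a, and Irf5 (-0.22 and -2.05) lies far below it.

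Lastly, the genes whose log2 profile over the 10 libraries lay closest to 4 of the induced members were identified among 8459 genes whose mean was 10 CPM or more, by the root mean square difference after centring each gene. For Irak2 these were the p38-activated kinase Mapkapk2 (0.0853), the ceramide synthase Cers6 (0.101) and the stress-response factor Nupr1 (0.102). For Irak3 they were the cell-surface proteoglycan Sdc4 (0.119), the junctional adhesion molecule F11r (0.158) and the adenosine receptor Adora2b (0.158). Sdc4 was also the closest to Tnfaip3 (0.111), before Foxp4 (0.115) and the inflammasome sensor Nlrp3 (0.116), so that Irak3 and Tnfaip3 shared their nearest gene. For Tnip3, the closest were Gramd1a (0.151), Nfkb1 (0.152), which encodes an NF-κB subunit, and Stard5 (0.152). These distances describe likeness over 10 libraries in 5 groups and nothing more.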

How the data were processed

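Total RNA of 10 BMDM samples (5 groups, 2 libraries each) was sequenced by the authors as stranded mRNA libraries with 50 bp single reads. The authors mapped reads with STAR 2.27a, counted them per gene with Ensembl release 97 on GRCm38 and deposited CPM values with an offset of 0.0001, so CPM corrects for depth but not for gene length or for strongly induced genes that take up reads. How reads on overlapping genes were counted is not given in the sources used here. No read counts were used: depth (14128128 to 38392592 reads on genes) was worked out from the step between low CPM values, and 3 reads were taken as detectable.

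The log2 of the deposited values was fitted with limma 3.58.1 in R 4.3.3 (statmod 1.5.0; eBayes with trend and robust) over all 10 libraries and the 11978 genes that reached 1 CPM in 2 or more of them, with Benjamini-Hochberg adjustment within each of 7 comparisons. A call took an adjusted p-value under 0.05 together with a 2-fold difference or more. Scripts were tested on simulated data. Groups come from the sample labels. Positions and exon lengths are from GENCODE M21, in which 55480 of the 55573 identifiers have a symbol, and promoter windows from RefSeq.

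The members, gene lists and motifs were chosen with earlier results of these data known. Named genes are all 10 members, the called gene with the largest rise and fall of each role group with PNPi+dG/rG+polyU, and the 3 nearest profiles of Irak2, Irak3, Tnfaip3 and Tnip3, and any other gene was named after its values were seen. The 18 alternatives were pseudocounts of 0.1 and 1, no filter, a filter on the mean, centred libraries, plain eBayes, a replicate block, a fit of only the groups compared, and each library left out.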

Additional observations from a re-analysis of the deposited data

Results flagged for a closer look

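The effect of PNPi+dG/rG differed between cells with and without polyU for 8 of the 10 members, by the limma interaction with an adjusted p-value under 0.05. At that threshold, the interaction was positive for 1415 and negative for 4654 of the 11978 genes tested. PNPi+dG/rG added more in the presence of polyU for Tnfaip3 (2.42), Irak3 (1.94), Tnip3 (1.86), Tnip1 (1.76), Irak2 (1.64) and Myd88 (0.88) on the log2 scale. It went the other way for Irak1 (-0.42) and Irak4 (-0.31), and for this pair the adjusted p-value was above 0.05 when each library was centred on its median gene (0.16 and 0.851). The interaction uses 2 libraries in each of 4 groups.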

How the results depend on the processing

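Over 18 alternatives, 1231 of 1260 member values kept their direction and their side of the limits, 5 passed the limits that they had missed, 0 lost a call and 24 turned their sign. Centring each library on its median gene moved the most values. It raised the number of members called between PNPi+dG/rG+polyU and R848 from 1 to 3 (Tnip1 -1.36 and Tnfaip3 -1.24 joined Irak3), and Myd88 was then called in the comparison with polyU (1.17) and in the interaction (1.17). With that centring the sign turned for Irak4 with R848 (0.25), which had an adjusted p-value under 0.05 before centring. The other values that turned had not passed an adjusted p-value of 0.05 before centring. They were Myd88 between PNPi+dG/rG+polyU and R848 (-0.27), and Irak3 (-0.000706) and Tnip1 (-0.026) with PNPi+dG/rG. Traf6 with PNPi+dG/rG+polyU (0.11) and Tnip2 relative to polyU (0.22) and in the interaction (0.21) were the rest. Centring assumes that the median gene did not change, which was not tested.

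With each library left out in turn, the calls between PNPi+dG/rG+polyU and R848 ranged from 1 to 2, the second being Tnip1 without R848 replicate 1. Values whose sign turned ranged, with PNPi+dG/rG, from -0.21 to 0.018 for Traf6, -0.020 to 0.032 for Tnip1, -0.049 to 0.13 for Tnip2, -0.073 to 0.023 for Irak2, -0.011 to 0.075 for Irak3, -0.0063 to 0.078 for Myd88 and -0.15 to 0.026 for Tnfaip3. Traf6 ranged from -0.22 to 0.010 with PNPi+dG/rG+polyU and from -0.017 to 0.21 with R848. Tnip2 ranged from -0.12 to 0.047 relative to polyU, from -0.15 to 0.026 relative to R848 and from -0.17 to 0.010 in the interaction. None of these had an adjusted p-value under 0.05 in the fit of all libraries.

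Deviations of same-numbered libraries correlated with r from -0.286 to 0.109 over 8459 genes. This does not settle whether the libraries were paired, since a shared factor could be numbered differently between groups. A fit with the replicate block changed 0 of 70 member calls (Irak3 with R848 stayed at 4.02). A planned test on read counts was not run: the deposited values are CPM with an offset, and the reads worked out from them were used only to describe depth. With 2 libraries per group, limma borrows the spread from all genes, and the intervals of Traf6 and Tnip2 were the widest among the members.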
